A study of Homo sapiens with 9 samples.

Results

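The genes described here are those of cadherin-based adhesion and epithelial identity: the cadherins CDH1, CDH2, CDH3, CDH6, CDH11 and CDH20, the catenins CTNNA1, CTNNA2 and CTNNB1, and the adhesion protein EPCAM. They were taken by symbol from the count table, which held all 10 of them among 19907 genes. Expression was measured by RNA sequencing of total RNA in the human embryonic stem cell line HUES8, an established line labelled as wild type, driven toward definitive endoderm, the embryonic layer that forms gut, liver and pancreas. Every group received activin A at 100 ng/mL with 0.2% fatty-acid-free albumin, with Wnt-3a at 50 ng/mL for the first 2 days and none for 1 to 2 days more. The 9 libraries form 3 groups of 3: DE had no inhibitor, C75 was given the fatty acid synthase inhibitor of that name, and ETO a compound that blocks fatty acid oxidation. Neither the dose nor the timing of the inhibitors nor the day of harvest stands in the labels, and all libraries come from a single cell line. Nothing says that libraries of 1 group were grown as separate cultures. The p-values below therefore reflect the spread between these libraries alone, and that spread may be technical.

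Classical cadherins are calcium-dependent proteins of the cell surface that bind the same cadherin on a neighbouring cell. Inside the cell their tail binds beta-catenin (CTNNB1), which binds an alpha-catenin (CTNNA1, CTNNA2) and through it the actin cytoskeleton. Beta-catenin is also the effector of WNT signalling in the nucleus. E-cadherin (CDH1) holds undifferentiated pluripotent cells together, and pluripotent cells that become mesendoderm and endoderm are known to lower E-cadherin and raise N-cadherin (CDH2).

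CDH1 lies at 16:68737225-68835548 on the plus strand of GRCh38, and CDH3 at 16:68636189-68722616 lies upstream of it on the same strand. They are neighbours in the table, with 14608 bases between the end of CDH3 and the start of CDH1. CDH11 lies on the minus strand of the same chromosome (16:64943753-65126112). CDH2 (18:27950966-28177446, minus strand) and CDH20 (18:61333582-61555773, plus strand) share chromosome 18, and CDH6 (5:31193750-31329146) and CTNNA1 (5:138610967-138935034) share chromosome 5. CTNNA2 lies at 2:79185231-80648861, EPCAM at 2:47345158-47387601 and CTNNB1 at 3:41194741-41260096, all on the plus strand. These spans are those of GENCODE release 29, whose merged exon lengths equalled the deposited gene length for all 10 genes. Whether the counting used strand is not given in the sources used here. Exons shared with an antisense transcript made up 11.13% of the CDH3 length, 5.62% of the CDH1 length and 5.04% of the CTNNA1 length (the last with LRRTM2), and a pseudogene on the same strand covered 8.96% of the CDH6 length. Reads from these stretches cannot be assigned with certainty.

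RefSeq promoter windows were at hand for CDH2, CDH20, CTNNA1, CTNNA2 and CTNNB1, 12 windows in all. The 250 bases before a start site are printed below for CDH20 and for the inner start of CDH2, because both genes were higher with C75 and lower with ETO, and for an inner start of CTNNA2, which was lower with both inhibitors. All 3 lie outside the exons that GENCODE 29 gives their gene, whereas the window of the outer CDH2 start lay wholly inside its first exon and is not printed. The CTNNB1 window is not printed for the same reason, as it lay wholly inside exons, although CTNNB1 had the same directions as CDH2. Another CTNNA2 window outside the exons, chr2:80313129-80313378, is not printed either. Each is given 5′ to 3′ on the strand of the gene, from build GRCh38.p14, and capitals mark motif matches on either strand. The motifs were CANNTG (the general E-box), CACCTG (a narrower form of the E-box), CTTTGAT (a TCF/LEF motif) and CCAAT (the CAAT box).
CDH20, chr18:61333180-61333429, plus strand: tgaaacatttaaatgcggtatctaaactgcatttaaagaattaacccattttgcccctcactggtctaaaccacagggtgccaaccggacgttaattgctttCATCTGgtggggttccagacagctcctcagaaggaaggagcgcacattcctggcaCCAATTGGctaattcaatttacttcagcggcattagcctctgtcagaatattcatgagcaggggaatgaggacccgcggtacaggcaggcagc
CDH2, chr18:28036642-28036891, minus strand: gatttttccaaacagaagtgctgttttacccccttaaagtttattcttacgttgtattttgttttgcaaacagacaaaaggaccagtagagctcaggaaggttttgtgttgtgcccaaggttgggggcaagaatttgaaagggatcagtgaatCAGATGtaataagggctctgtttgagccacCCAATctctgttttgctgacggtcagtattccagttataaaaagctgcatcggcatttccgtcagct
CTNNA2, chr2:79522933-79523182, plus strand: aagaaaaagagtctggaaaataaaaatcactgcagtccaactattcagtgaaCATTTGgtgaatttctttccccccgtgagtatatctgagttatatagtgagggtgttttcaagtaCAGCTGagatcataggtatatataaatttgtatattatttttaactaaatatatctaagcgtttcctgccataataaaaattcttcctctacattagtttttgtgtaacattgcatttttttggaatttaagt

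The CDH20 window held 2 CANNTG matches and 2 CCAAT matches, with the second E-box lying inside a palindromic pair of CAAT boxes, where the motifs overlap. The inner CDH2 window held 1 of each, and the CTNNA2 window held 2 CANNTG matches and no other. None of the 12 windows held CACCTG, which 17.49% of all 35116 RefSeq windows of this length hold. CANNTG stood in 7 of the 12 and in 61.82% of all windows, CCAAT in 5 of the 12 and in 32.01%, and CTTTGAT in 2 of the 12 and in 2.26%. The last 2 are CTNNA1 windows that share 80 bases, and they hold 1 and the same CTTTGAT site and a shared E-box, so the 12 windows are not independent. Of CpG dinucleotides, the outer CDH2 window held 17, the CTNNB1 window 34, 2 of the CTNNA1 windows 33 and 39 and 1 of the CTNNA2 windows 39, against a median of 11 over all windows. The other 7 windows held 2 to 8, with 7 in CDH20. These matches describe the letters of the windows, and gene counts do not tell which start site was used.

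Library totals ran from 17379711 to 21510997 counts, and 15948 to 16472 genes were detected per library. The group label was checked against 8 definitive endoderm markers, whose summed level was 9821 to 10222 CPM (CPM is the count of a gene divided by its library's TMM-adjusted size) in DE, 15434 to 15791 in C75 and 5219 to 5346 in ETO. CER1 made up most of that sum (7034 CPM in DE, 11408 in C75 and 3849 in ETO, on average). All 8 rose with C75 (7 in at least 1 alternative fit) and fell with ETO. The DE libraries held SOX17 at 760 CPM, FOXA2 at 145 and CXCR4 at 180, and also POU5F1 at 295, NANOG at 55.0, SOX2 at 23.0 and TBXT at 7.60, on average. The summed level of 6 pluripotency markers was 2809 to 2920 CPM in DE, 2553 to 2588 in C75 and 3292 to 3377 in ETO. LIN28A (1550 CPM) and TDGF1 (928) were the largest of them in DE, and both fell with ETO (log2 fold changes -0.48 and -0.10). The other 4 rose with ETO, POU5F1 to 1139 CPM, while with C75 TDGF1 rose (0.28) and 5 fell. The 8 mesoderm markers summed to 210 to 218, 104 to 110 and 466 to 473 CPM, with FOXF1 at 0 in C75. KDR was the largest of these (121, 58.0 and 347 CPM), and with ETO 5 of the 7 tested rose and FOXC1 fell (-0.32). The 5 that rose became 3 with DESeq2, without DE library 2 and without ETO library 2 or 3. The 7 neural and neural crest markers summed to 805 to 816, 925 to 942 and 996 to 1021 CPM, with SOX1 at 0 in C75. NES made up much of that sum (367 CPM in DE, 260 in C75 and 829 in ETO, on average), and of the 6 markers tested NES and FOXD3 rose with ETO while PAX6 (-2.20), SOX10 (-2.01) and OTX2 (-1.39, log2 fold changes) fell. The 6 extraembryonic markers summed to 37.7 to 39.9, 21.5 to 23.3 and 36.7 to 41.9 CPM, with CGA at 0 in all libraries and AFP at 0 in C75. Over all genes tested, 31.2% were called higher and 31.9% lower with C75, and 34.7% higher and 35.3% lower with ETO. The share of counts from mitochondrial genes was 2.87% to 3.12% in DE, 3.26% to 3.55% in C75 and 4.24% to 4.45% in ETO. These markers moved with the groups in the same libraries as the genes below, and their part in those results was not tested. In bulk RNA, fewer cells of a type and less RNA per cell cannot be told apart.

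Most of the 10 genes differed from DE under each inhibitor, and so did most genes of the table. All 10 passed the filter on low counts. With C75, 8 of them were called (edgeR quasi-likelihood test, Benjamini-Hochberg adjusted p below 0.05 over 14177 genes), against 63.1% of all genes tested. CDH2, CDH20 and CTNNB1 rose, where 31.2% of all genes rose, and CDH1, CDH3, CDH6, CDH11 and CTNNA2 fell, where 31.9% fell. With ETO, 8 were called, against 69.9% of all genes: CDH1, CDH6 and CDH11 rose and CDH2, CDH20, CTNNA2, CTNNB1 and EPCAM fell, where 34.7% of all genes rose and 35.3% fell. Both comparisons use the same DE libraries. Between the inhibitors, 9 of the 10 were called, against 79.2% of all genes, with 4 higher in C75 (39.9% of all genes) and 5 lower (39.2%).

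Counts of calls were thus near those of the table as a whole, while the sizes of the differences were larger. The 10 genes were chosen with earlier results of these data known, and all genes were not matched to them on level. The larger sizes therefore describe these 10 genes and do not show that adhesion genes differ more than others. The median size of the log2 fold change was 0.60 over the 10 genes and 0.27 over all genes for C75 against DE, 0.93 and 0.33 for ETO against DE, and 1.22 and 0.49 for C75 against ETO. The signed medians were -0.31, -0.12 and -0.28 for the 10 genes and -0.00, -0.00 and 0.01 for all genes. A change of at least 2-fold was called for 4, 5 and 6 of the 10 genes in these comparisons, where 9.20%, 14.4% and 23.7% of all genes had one. The libraries of the groups compared did not overlap for 8, 9 and 9 of the 10, where this held for 65.8%, 71.7% and 80.0% of all genes.

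**Figure D1:**
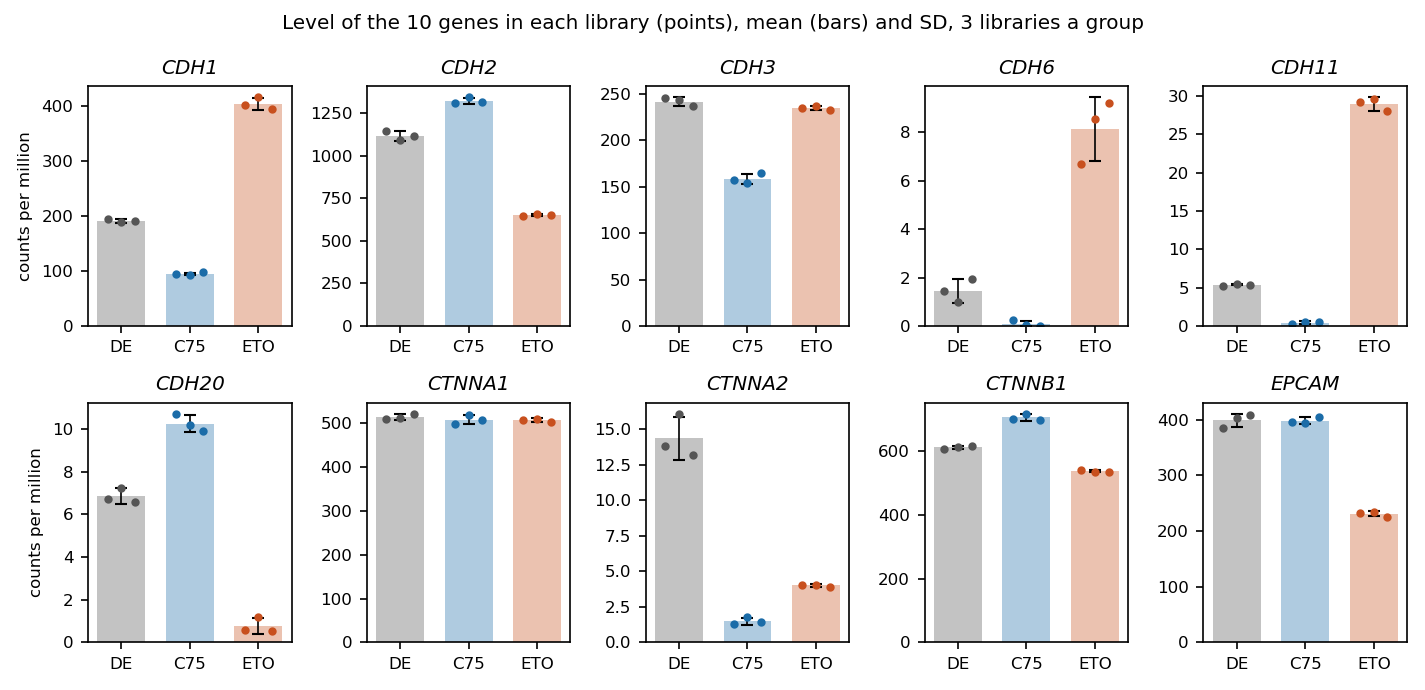
Level of each gene in CPM (vertical axis, from 0, different in each panel) in the 3 groups (horizontal axis). Points are libraries, bars are means and error bars the SD of 3 libraries. CDH1 is lowest in C75 (92.4 to 97.2) and highest in ETO (394 to 415), CDH2 is highest in C75 (1306 to 1342), and CTNNA1 lies between 498 and 520 in all 9 libraries.

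E-cadherin stood apart in all 3 groups. The DE libraries held CDH1 at 195, 188 and 191 CPM, the C75 libraries at 94.0, 92.4 and 97.2 CPM and the ETO libraries at 401, 415 and 394 CPM. Every C75 library was below every DE library and every ETO library above them. The log2 fold change was -1.02 (standard error, SE, 0.037, adjusted p = 2.5e-22) for C75 against DE, a 2.02-fold lower level, and 1.08 (SE 0.033, adjusted p = 7.8e-25) for ETO against DE, a 2.11-fold higher level. C75 and ETO differed by 4.27-fold. Of all genes tested, 9.4% changed at least as much as CDH1 with C75 and 12.8% with ETO.

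N-cadherin was the most abundant of the 6 cadherins in every library. In CPM, CDH2 gave 1143, 1089 and 1112 without inhibitor, 1306, 1342 and 1314 under C75 and 648, 658 and 651 under ETO. The order of the groups was the reverse of that for CDH1, with no overlap between groups. Its rise with C75 was small (log2 fold change 0.24, SE 0.028, adjusted p = 3.5e-09), and 54% of all genes tested changed at least as much. The fall with ETO was larger (-0.77, SE 0.029, adjusted p = 1.4e-22), and 20.8% of all genes changed at least as much. The rise with C75 was not called when the test asked for a log2 change above 0.5.

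P-cadherin (CDH3), the chromosomal neighbour of CDH1, was called against DE with C75 and not with ETO. The CPM values of CDH3 were 245, 244 and 237 for DE, 157, 154 and 165 for C75 and 235, 237 and 233 for ETO. The gene fell with C75 (log2 fold change -0.61, SE 0.035, adjusted p = 8.5e-17). ETO against DE gave -0.04 (SE 0.034, adjusted p = 0.26), which did not pass the test, although the 3 ETO libraries were all below the lowest DE library.

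The type II cadherins CDH6 and CDH11, known from kidney and from mesenchymal tissue, were rare transcripts, much lower with C75 and much higher with ETO. The DE libraries held CDH11 at 5.27, 5.49 and 5.40 CPM, the C75 libraries at 0.282, 0.550 and 0.494 CPM and the ETO libraries at 29.2, 29.6 and 28.0 CPM. The counts behind these levels were 111, 96 and 102 in DE, 5, 10 and 9 in C75 and 643, 590 and 508 in ETO. The groups did not overlap. CDH11 fell with C75 (log2 fold change -3.58, SE 0.21, adjusted p = 2.1e-16) and rose under ETO (2.43, SE 0.093, adjusted p = 4.2e-22). From the summed counts, the DE level was 12.1 times that in C75 (95% interval 8.0 to 19.2) and the ETO level 65.4 times that in C75 (43.8 to 102). These intervals are exact binomial ones and cover counting error only.

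CDH6 had counts of 30, 17 and 37 in the DE libraries, 4, 1 and 0 in the C75 libraries and 147, 170 and 167 in the ETO libraries. In CPM these are 1.42, 0.971 and 1.96 for DE, 0.225, 0.0550 and 0 for C75 and 6.68, 8.54 and 9.20 for ETO, with no overlap between groups. CDH6 fell with C75 (log2 fold change -3.89, SE 0.52, adjusted p = 6.1e-08) and rose under ETO (2.47, SE 0.21, adjusted p = 2.1e-12). The DE level was 15.8 times that in C75, with a counting interval of 6.52 to 50.0, since only 5 counts stand behind the C75 value. Of these, 4 came from C75 library 1, and without that library the log2 fold change was -5.44. The fall was past the threshold in every alternative.

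CDH20, a type II cadherin known from the nervous system, had the order of CDH2 at a far lower level. The DE libraries held CDH20 at 6.74, 7.26 and 6.56 CPM and the C75 libraries at 10.7, 10.2 and 9.89 CPM. The ETO libraries held it at 0.590, 1.21 and 0.551 CPM, from 13, 24 and 10 counts. The groups did not overlap. It rose with C75 (log2 fold change 0.58, SE 0.13, adjusted p = 1.9e-04) and fell with ETO (-3.12, SE 0.20, adjusted p = 8.3e-16). Of all genes tested, 22.1% changed at least as much with C75 and only 0.205% with ETO. From summed counts the DE level was 8.74 times that in ETO (counting interval 6.45 to 12.1).

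**Figure D2:**
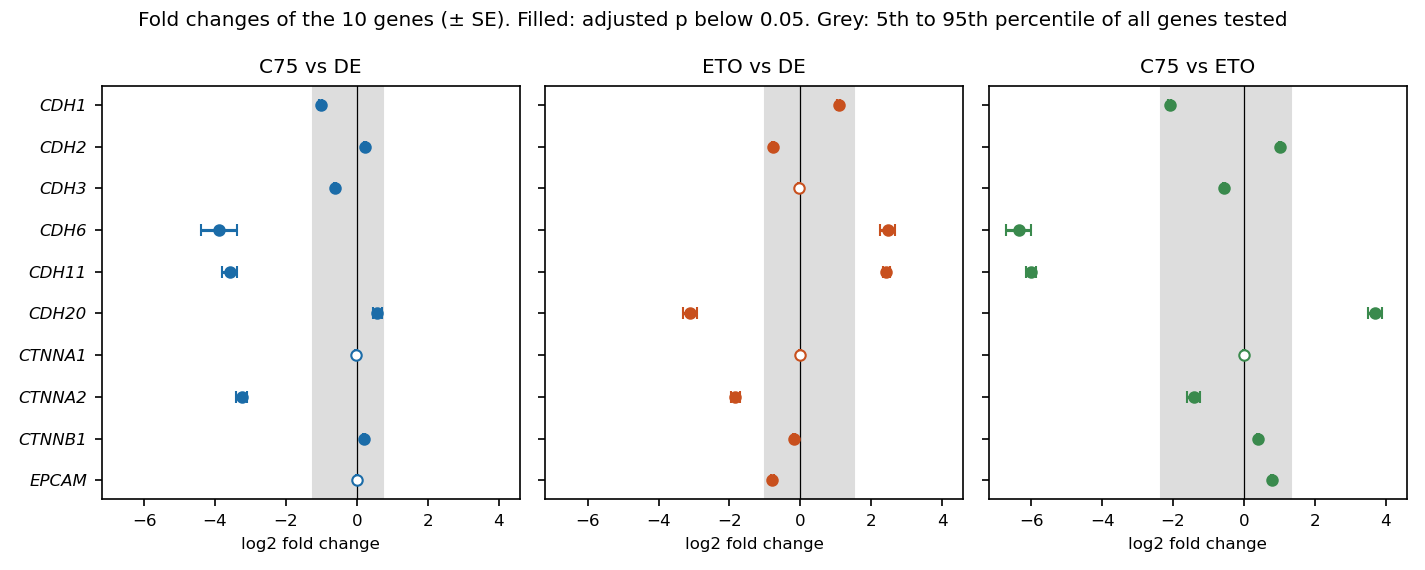
Log2 fold change (horizontal axis) of the 10 genes in the 3 comparisons, with the SE as error bars. Filled points had an edgeR adjusted p below 0.05, and the grey band spans the 5th to 95th percentile of all 14177 genes tested. CDH6, CDH11 and CTNNA2 lie left of the band for C75 against DE. For ETO against DE, CTNNA2 and CDH20 (-3.12) lie left of it and CDH6 and CDH11 right of it.

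Levels of different genes were compared per length, as TMM-scaled CPM per kilobase of the gene length in the table. In DE the order was CDH2 (225), EPCAM (158), CTNNA1 (58.1), CTNNB1 (51.4), CDH3 (38.8), CDH1 (31.0), CTNNA2 (1.90), CDH20 (1.66), CDH11 (0.402) and CDH6 (0.117). CTNNA2 and CDH20 overlapped between libraries and the other neighbours did not. In C75, CTNNB1 (59.2) and CTNNA1 (57.5) stood side by side and overlapped, CDH3 (25.4) and CDH1 (15.3) followed, and CDH20 (2.49) was above CTNNA2 (0.198). In ETO, CDH1 (65.3) came after CDH2 (132) and EPCAM (91.7), ahead of CTNNA1 (57.3), CTNNB1 (45.0) and CDH3 (37.7). The place of CDH1 in ETO depends on the length used: by the length of the principal transcript it came behind CDH2, CTNNA1, EPCAM and CTNNB1, while the orders in DE and C75 stayed as given. CDH2 ranked above 99.2% of the genes tested in DE, and CDH1 above 90.5% in DE, 78.2% in C75 and 96.6% in ETO.

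For the 6 cadherins of the 10 genes, the make-up of their summed level differed more than its size. This sum leaves out other classical cadherins. Among those, CDH24 (42.2 CPM in DE) and CDH4 (25.9) were above CDH20 (6.85). The summed per-length level of the 6 cadherins was 297 ± 6.20 in DE, 310 ± 3.10 in C75 and 238 ± 3.11 in ETO (mean ± SD, n = 3 libraries; two-sided exact permutation p = 0.1 for each pair of groups, the smallest that 3 against 3 libraries allow). The log2 differences were 0.06 for C75 against DE, -0.32 for ETO against DE and 0.38 for C75 against ETO. The first is small: with upper-quartile scaling it was 0.01 and the libraries overlapped (exact permutation p = 0.7), and by principal transcript length it was 0.04 (p = 0.2). CDH2 made up 75.8% of the sum in DE, 86.0% in C75 and 55.4% in ETO, whereas CDH1 made up 10.4%, 4.94% and 27.5% and CDH3 13.1%, 8.20% and 15.8%. CDH20, CDH11 and CDH6 each held under 1% of it.

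The ratio of CDH1 to CDH2, which needs no scaling between libraries, was 0.137 ± 0.000961 in DE, 0.0574 ± 0.00204 in C75 and 0.496 ± 0.0101 in ETO (mean ± SD, n = 3). The libraries ran from 0.136 to 0.138, from 0.0552 to 0.0592 and from 0.486 to 0.506, so that no groups overlapped. On the log2 scale the difference from DE was -1.26 in C75 and 1.85 in ETO (two-sided exact permutation p = 0.1 for each, the smallest possible). The difference between C75 and ETO was -3.11 (exact permutation p = 0.1). The summed level of the 8 definitive endoderm markers, given above and mostly CER1, was highest in C75 and lowest in ETO. The sums of the pluripotency and of the mesoderm markers were highest in ETO and lowest in C75. Not every marker of those 2 lists followed its sum, as LIN28A, TDGF1 and FOXC1 fell with ETO.

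**Figure D3:**
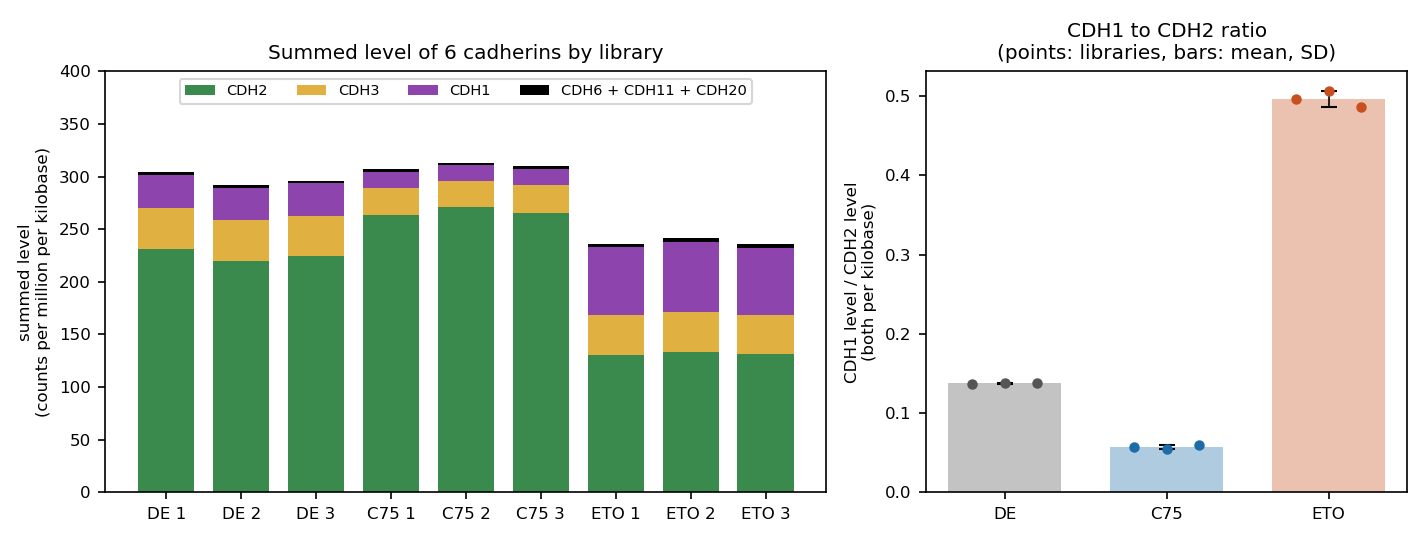
Left, summed level of the 6 cadherins in CPM per kilobase (vertical axis) in each of the 9 libraries, split by gene. Right, ratio of the per-kilobase levels of CDH1 and CDH2, with points for libraries, bars for means and error bars for the SD. The CDH1 share runs from 4.94% in C75 to 27.5% in ETO, and the ratio from 0.0574 to 0.496.

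Among the catenins, alpha-E-catenin (CTNNA1), the common link from beta-catenin to actin, had nearly the same level in the 3 groups. The CPM values of CTNNA1 were 509, 510 and 520 for DE, 498, 518 and 506 for C75 and 507, 510 and 502 for ETO, with overlap between all groups. The log2 fold changes were -0.02 (SE 0.030, adjusted p = 0.66) for C75 against DE, -0.02 (SE 0.030, adjusted p = 0.57) for ETO against DE and 0.00 (SE 0.030, adjusted p = 0.92) between the inhibitors. These values depend on the scaling. A correction for GC content and gene length gave -0.17 for ETO against DE (adjusted p = 6.9e-07) and 0.18 for C75 against ETO (adjusted p = 2.3e-07), and upper-quartile scaling gave -0.06 for C75 against ETO (adjusted p = 0.048).

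Beta-catenin (CTNNB1) differed between all groups by small amounts. The DE libraries held CTNNB1 at 608, 614 and 617 CPM, the C75 libraries at 702, 718 and 700 CPM and the ETO libraries at 541, 535 and 535 CPM, with no overlap. It rose with C75 (log2 fold change 0.21, SE 0.029, adjusted p = 1.5e-07) and fell with ETO (-0.19, SE 0.029, adjusted p = 4.7e-07). With the correction for GC content and length the fall with ETO was -0.39 and the difference between C75 and ETO 0.65 in place of 0.40. None of its 3 differences was called against a log2 change of 0.5. Per length, the ratio of CTNNA1 to CTNNB1 was 1.13 in DE, 0.970 in C75 and 1.27 in ETO, and that of the 6 cadherins to CTNNB1 was 5.78, 5.23 and 5.28. The size of both ratios depends on the length used, since CTNNB1 has 11927 bases in the table and 4735 in its principal transcript. By principal transcript length the cadherins summed to 348, 359 and 286 in DE, C75 and ETO, and CTNNB1 stood at 129, 149 and 113.

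Alpha-N-catenin (CTNNA2), the form known from neurons, was the gene of the 10 that was lower with both inhibitors. In CPM, CTNNA2 gave 13.8, 16.1 and 13.2 without inhibitor, 1.30, 1.76 and 1.43 under C75 and 4.04, 4.07 and 3.91 under ETO. The groups did not overlap. It fell with C75 (log2 fold change -3.25, SE 0.15, adjusted p = 2.8e-19) and less with ETO (-1.83, SE 0.12, adjusted p = 2.8e-15), and C75 was also below ETO (-1.42, SE 0.18, adjusted p = 1.6e-08). The summed counts were 820 in DE, 81 in C75 and 241 in ETO. The DE level was 9.54 times that in C75 (counting interval 7.58 to 12.1) and 3.56 times that in ETO (3.08 to 4.12).

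EPCAM, an epithelial surface protein of stem cells and many epithelia that mediates calcium-independent adhesion, was lower in ETO than in DE and C75. The CPM values of EPCAM were 386, 402 and 408 for DE, 396, 394 and 405 for C75 and 233, 234 and 226 for ETO. The DE and C75 libraries overlapped and all ETO libraries lay below them. With ETO the log2 fold change was -0.79 (SE 0.033, adjusted p = 3.2e-21), and C75 was above ETO by 0.79 (SE 0.033, adjusted p = 1.5e-21). C75 against DE gave -0.00 (SE 0.032, adjusted p = 0.98).

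Some genes of the related lists had the pattern of CDH1 or CDH2 over the 9 libraries, which share their groups, so the values are given as a description. They are the highest values among the genes of those lists, and r does not measure the size of a change. The highest Pearson r of log2 CPM with CDH1 was that of FAT4, an atypical cadherin (0.997), then PKP4, a plakophilin (0.993), and MMP2, a matrix metalloproteinase (0.993). With CDH2 it was that of the protease BACE1 (0.994), the protocadherin PCDH7 (0.994) and the membrane metalloproteinase MMP14 (0.993). Sizes differed: in log2 against DE, PKP4 changed by -0.27 with C75 and 0.26 with ETO, and MMP2 by -0.78 and 1.09. CDH1 changed by -1.02 and 1.08.

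Of 12 other classical cadherins 5 were tested. With C75 none rose and 4 fell (31.2% and 31.9% of all genes tested), and with ETO 2 rose and 2 fell (34.7% and 35.3%). C75 was above ETO for 1 and below it for 4 (39.9% and 39.2% of all genes). CDH4, retinal cadherin, fell with both inhibitors, from 25.9 ± 0.719 CPM in DE to 5.12 ± 0.456 with C75 (log2 fold change -2.34, adjusted p = 1.4e-20) and 15.6 ± 1.48 with ETO (-0.74, adjusted p = 4.3e-10; mean ± SD, n = 3). CDH8 fell with C75 (-0.71, adjusted p = 7.5e-06), and CDH24 rose with ETO (0.22, adjusted p = 6.4e-04). The counts of 0 and 1 higher moved by 1 gene in many alternatives, and without ETO library 1 only 1 gene fell with ETO.

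Of 29 atypical cadherins and protocadherins 24 were tested. Among these, 6 rose and 11 fell with C75 (31.2% and 31.9% of all genes), while 15 rose and 4 fell with ETO (34.7% and 35.3%). Their median log2 fold change was -0.28 with C75 and 0.51 with ETO, beside -0.00 over all genes in both. PCDH10, a protocadherin, fell with C75 from 405 ± 11.5 to 207 ± 2.68 CPM (-0.97, adjusted p = 2.7e-23), while PCDH1 rose (0.62, adjusted p = 1.2e-15). FAT1, a giant cadherin of cell polarity and growth control, rose with ETO from 89.1 ± 6.47 to 195 ± 2.23 CPM (1.12, adjusted p = 1.1e-22), and PCDH7 fell (-1.36, adjusted p = 8.2e-24).

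Among 18 tested catenins and partners of adherens junctions, 5 rose and 9 fell with C75 (31.2% and 31.9% of all genes). With ETO 8 rose and 7 fell (34.7% and 35.3%). CTNND1, the p120 catenin that holds cadherins at the membrane, fell with C75 from 492 ± 16.7 to 368 ± 5.05 CPM (-0.42, adjusted p = 9.7e-14). VCL, vinculin, which reinforces the link to actin, rose with ETO from 680 ± 20.3 to 1311 ± 19.7 CPM (0.95, adjusted p = 8.1e-25). NECTIN2, a nectin that joins neighbouring cells beside the cadherins, rose with C75 (0.38, adjusted p = 2.5e-12) and fell with ETO (-0.80, adjusted p = 6.3e-21).

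Tight junction genes moved in both directions. Of 21 tested, 6 rose and 10 fell with C75 (31.2% and 31.9% of all genes), and 8 rose and 9 fell with ETO (34.7% and 35.3%). The claudins CLDN1 and CLDN11, strand proteins of the tight junction, rose with C75 (0.88, adjusted p = 5.1e-10, and 0.66, adjusted p = 1.4e-10). With ETO, CLDN7 fell from 112 ± 2.49 to 69.7 ± 0.995 CPM (-0.69, adjusted p = 7.7e-16) and so did F11R, a junctional adhesion molecule (-0.34, adjusted p = 3.6e-11). The scaffold TJP1 was lower in C75 than in ETO (-0.57, adjusted p = 1.3e-16).

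Of 8 tested desmosome genes 1 rose and 4 fell with C75 (31.2% and 31.9% of all genes), and 4 rose and 3 fell with ETO (34.7% and 35.3%). DSG2, a desmosomal cadherin, fell with C75 from 322 ± 6.74 to 282 ± 6.83 CPM (-0.20, adjusted p = 2.9e-06) and rose with ETO to 423 ± 5.11 CPM (0.39, adjusted p = 3.3e-13). PKP2, a plakophilin, fell with ETO (-0.84, adjusted p = 7.0e-20), and PKP4 fell with C75 (-0.27, adjusted p = 2.9e-07). The count that rose with C75 was 3 without DE library 1, 2 without C75 library 3 and 3 with the GC and length correction.

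Polarity genes, which set the apical and lateral sides of an epithelial cell, were called in both directions. Of 13 tested, 3 rose and 2 fell with C75 (31.2% and 31.9% of all genes), and 2 rose and 7 fell with ETO (34.7% and 35.3%). PARD3, a scaffold of the apical PAR complex, rose with C75 from 152 ± 5.86 to 223 ± 2.12 CPM (0.56, adjusted p = 1.8e-15), and PATJ, of the Crumbs complex, fell (-0.60, adjusted p = 3.6e-13). With ETO, the kinase PRKCZ (-0.55, adjusted p = 9.8e-11) and LLGL2 of the lateral Scribble module (-0.39, adjusted p = 2.1e-10) fell. The 2 genes lower with C75 became 5 with upper-quartile scaling and 4 with the GC and length correction, and the 2 higher with ETO became 1 without DE library 1 or ETO library 1.

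**Figure D4:**
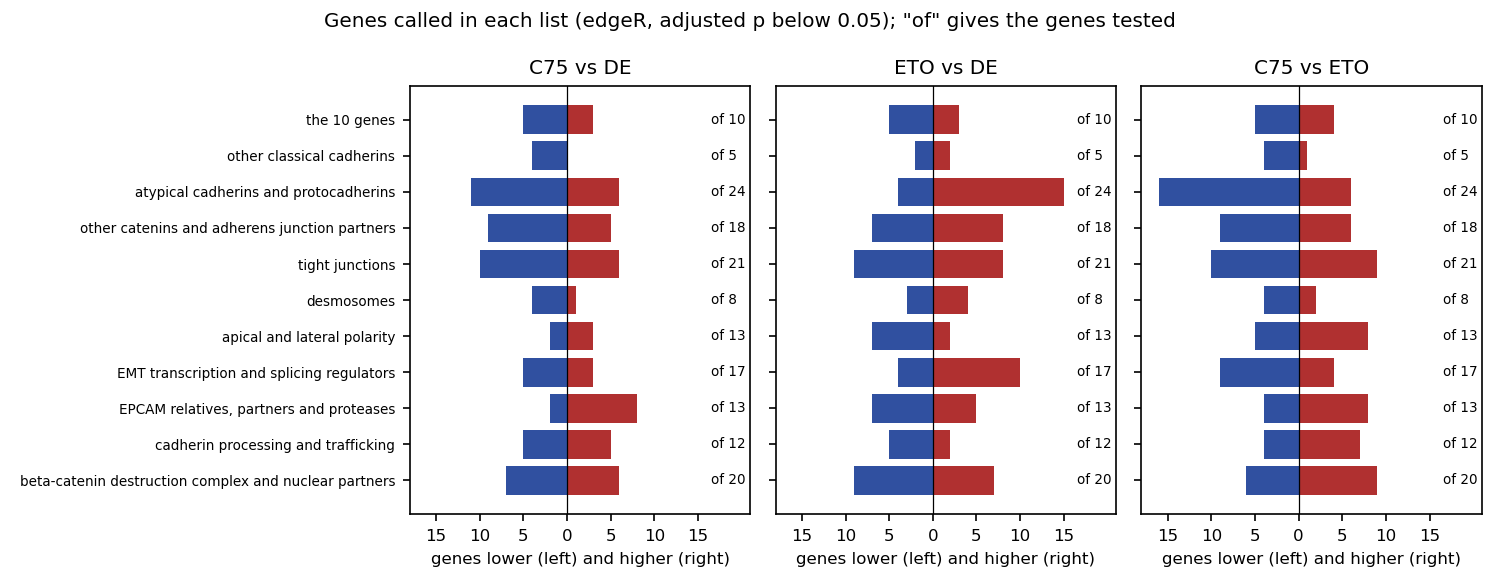
Number of genes called higher (red, right) and lower (blue, left) in each list, for the 3 comparisons, with the number tested beside each bar. For atypical cadherins and protocadherins, 6 of 24 were higher with C75 and 15 of 24 with ETO. Over all genes tested, 31.2% were higher and 31.9% lower with C75, and 34.7% were higher and 35.3% lower with ETO.

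Several regulators of the epithelial and mesenchymal states are known to act on CDH1. Of 17 tested, 3 rose and 5 fell with C75 (31.2% and 31.9% of all genes), and 10 rose and 4 fell with ETO (34.7% and 35.3%). Without ETO library 2, 6 rose with ETO, and without C75 library 1, 3 fell with C75. The repressors SNAI1, SNAI2, ZEB1, ZEB2, TWIST1 and TWIST2 are given here for every comparison with DE. SNAI1 stood at 17.6 ± 0.752 CPM in DE, 16.7 ± 1.51 in C75 and 17.8 ± 0.227 in ETO and was not called in either comparison with DE, although the GC and length correction called it higher with ETO (0.21, adjusted p = 0.014). The other 5 of these 6 were at or below 5 CPM in every group, apart from TWIST1 in ETO. TCF3, a further gene of the list, was far more abundant, at 386 ± 13.2 CPM in DE, 392 ± 19.1 in C75 and 321 ± 9.49 in ETO. It fell with ETO (-0.26, adjusted p = 5.7e-08) and was not called with C75 (0.02, adjusted p = 0.61). KLF4 and KLF5 were not called against DE with either inhibitor.

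With C75, TWIST1 fell from 1.75 ± 0.557 to 0.482 ± 0.277 CPM (-1.86, adjusted p = 2.7e-05), and SNAI2, ZEB1, ZEB2 and TWIST2 did not pass the test. With ETO, TWIST1 rose to 8.71 ± 1.5 CPM (2.31, adjusted p = 4.0e-12). ZEB2 rose to 4.99 ± 0.273 CPM (1.93, adjusted p = 6.5e-09) and SNAI2 to 1.02 ± 0.316 (2.50, adjusted p = 3.6e-05). A bearing of these repressors on the CDH1 level was not tested. ZEB1 (0.65, adjusted p = 0.012) and TWIST2 (0.57, adjusted p = 0.013) also rose with ETO, calls that were lost without DE library 1, among others: ZEB1 gave 0.55 (adjusted p = 0.058) and TWIST2 0.42 (adjusted p = 0.097). ZEB1 was further not called without DE library 2, ETO library 2 or ETO library 3, and TWIST2 not without ETO library 3. With C75, ZEB1 was called with no filter on low counts (0.47, adjusted p = 0.0497), with the GC and length correction (0.54, adjusted p = 0.042) and without DE library 3 (0.72, adjusted p = 0.020), and TWIST2 without C75 library 3 (-0.70, adjusted p = 0.015). TWIST1 is also among the mesoderm markers given above.

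On the epithelial side, ESRP2, which directs epithelial splicing, rose with C75 from 65.4 ± 1.04 to 92.2 ± 3.44 CPM (0.49, adjusted p = 6.9e-12) and fell with ETO to 48.7 ± 0.792 CPM (-0.43, adjusted p = 5.1e-10). OVOL1, a repressor of mesenchymal genes, rose with C75 (0.78, adjusted p = 7.6e-11) and fell with ETO (-0.64, adjusted p = 7.0e-08). ELF3, an epithelial transcription factor, fell from 11.8 ± 0.681 CPM to 6.20 ± 0.559 with C75 (-0.93, adjusted p = 9.9e-09) and to 4.97 ± 0.345 with ETO (-1.25, adjusted p = 1.2e-11). GRHL2, a grainyhead factor that activates epithelial genes, fell with C75 from 18.0 ± 0.622 to 9.98 ± 0.583 CPM (-0.85, adjusted p = 1.9e-10) and rose with ETO to 25.9 ± 1.39 CPM (0.53, adjusted p = 1.1e-07). ESRP2 and OVOL1 were thus highest in C75 and lowest in ETO, GRHL2 was lowest in C75 and highest in ETO, and ELF3 was highest in DE.

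The remaining members of these families were also called in places. GRHL3 fell with C75 (-1.51, adjusted p = 0.016) and rose with ETO (1.27, adjusted p = 0.0020), at 0.539 CPM in DE, and its fall was not called without C75 library 1 (-1.12, adjusted p = 0.091). OVOL2 fell with C75 (-0.63, adjusted p = 0.026) and rose with ETO (0.50, adjusted p = 0.036), at 2.00 CPM in DE. Neither OVOL2 call held with DESeq2 (adjusted p = 0.064 and 0.097). The first was also lost without DE library 1 or 3 or C75 library 1 or 2 (-0.55 to -0.63), and the second without any 1 of the DE libraries or ETO library 1 or 2 (0.42 to 0.51). ESRP1 rose with C75 from 169 to 186 CPM (0.14, adjusted p = 0.0011). With ETO, ESRP1 (0.08, adjusted p = 0.046) and GRHL1 (0.39, adjusted p = 0.036) were called, and both calls were lost in several alternatives, among them ETO library 2 left out (0.07, adjusted p = 0.13, and 0.33, adjusted p = 0.12). GRHL1 was not called with C75 (-0.24, adjusted p = 0.25).

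EPCAM is cleaved by proteases and sits in the membrane with tetraspanins. Of 13 tested relatives, partners and proteases, 8 rose and 2 fell with C75 (31.2% and 31.9% of all genes). With ETO 5 rose and 7 fell (34.7% and 35.3%). The sheddase ADAM10 fell with C75 (-0.31, adjusted p = 5.0e-09). With ETO, BACE1 fell from 83.9 ± 4.68 to 38.9 ± 2.56 CPM (-1.11, adjusted p = 8.8e-20) and the tetraspanin CD9 rose from 83.9 ± 2.99 to 140 ± 3.51 CPM (0.74, adjusted p = 4.7e-18). SPINT2, a protease inhibitor that protects EPCAM, was higher in C75 than in ETO (0.75, adjusted p = 1.4e-19). The 2 genes lower with C75 became 1 without DE library 2, C75 library 1 or C75 library 2.

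Of 12 tested genes of cadherin processing and trafficking, 5 rose and 5 fell with C75 (31.2% and 31.9% of all genes). With ETO 2 rose and 5 fell (34.7% and 35.3%). PCSK5, a proprotein convertase, fell with C75 from 7.94 ± 0.712 to 2.07 ± 0.537 CPM (-1.93, adjusted p = 3.4e-13) and rose with ETO to 20.7 ± 0.485 CPM (1.39, adjusted p = 1.8e-14). MMP2 fell with C75 (-0.78, adjusted p = 3.4e-13) and rose with ETO (1.09, adjusted p = 1.2e-19). The 5 genes that rose with C75 became 3 without DE library 2, 1 without DE library 3, and 2 without C75 library 1 or 3 and with upper-quartile scaling.

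The genes that degrade beta-catenin or act with it in the nucleus were called in both directions. Of 20 tested, 6 rose and 7 fell with C75 (31.2% and 31.9% of all genes), and 7 rose and 9 fell with ETO (34.7% and 35.3%). APC, the scaffold of the destruction complex, rose with C75 from 96.0 ± 6.85 to 130 ± 6.64 CPM (0.43, adjusted p = 7.3e-10), and TBL1X, a nuclear partner, fell (-0.36, adjusted p = 1.9e-07). With ETO, the transcription factor TCF7L2 fell from 79.3 ± 4.90 to 44.8 ± 2.43 CPM (-0.83, adjusted p = 1.9e-16), and AXIN2, a feedback target of WNT signalling and a part of the destruction complex, fell from 73.0 ± 3.68 to 43.2 ± 0.647 CPM (-0.76, adjusted p = 8.2e-16).

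**Figure D5:**
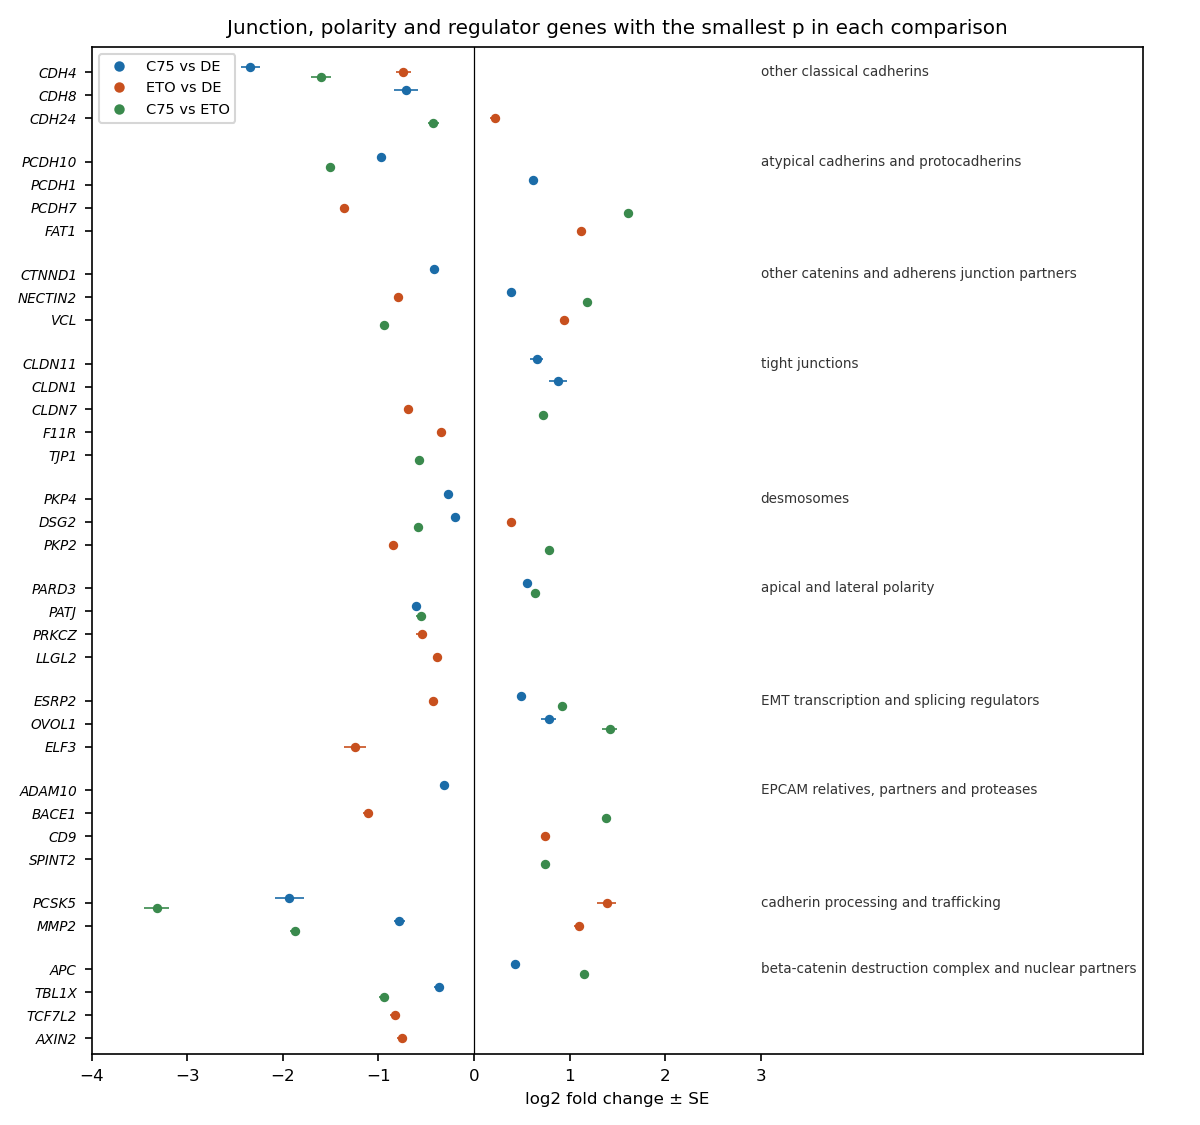
Log2 fold change (horizontal axis) with its SE for the reported genes of the 10 other lists, chosen by the smallest p in a comparison. Each point is a comparison in which the gene was chosen, coloured as in the key. PCSK5 runs from -3.32 for C75 against ETO to 1.39 for ETO against DE.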

How the data were processed

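The authors deposited raw counts for each gene symbol and library, beside a gene length in bases, and no header says how they were made. HISAT2 2.1.0, featureCounts 1.6.4 and GRCh38 are named in the submitters' processing notes without a role, and the sources used here do not give annotation, strand use or multimapping. All 19907 symbols matched GENCODE 29, and 19875 (99.84%) had its merged exon length.

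From the deposited counts, genes were filtered with filterByExpr (14177 left, with 99.962% of counts), scaled by TMM and tested with edgeR 4.0.16 (R 4.3.3) quasi-likelihood F-tests in 1 fit of 9 libraries with group as the only term. P-values were adjusted by Benjamini-Hochberg over all genes, with a threshold of 0.05, so a call needs an adjusted p below it. The code was tested on simulated data. Replicate pairs all differed by more than counting noise (chi-square 1.79 to 3.37 per gene). Deviations of same-numbered libraries correlated at -0.027 to 0.050 and those of others at -0.044 to 0.047, while 6 libraries correlated best with their own number. These small values do not settle whether replicate numbers pair libraries. Libraries held 17379711 to 21510997 counts, and the low counts of CDH6, CDH11 and CDH20 limit their precision.

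The 10 genes and all lists were chosen with earlier results of these data known. Genes of other lists were named by a rule: up to 2 with the smallest p per list and comparison, with a mean of at least 5 CPM, and the 3 closest to CDH1 and to CDH2. A gene named by this rule is not reported here. The SNAI, ZEB, TWIST, GRHL, OVOL, ESRP, ELF3, TCF3 and KLF genes of the regulator list were added after their values were seen. Alternatives were other scalings and filters, DESeq2 1.42.0, fits of 6 libraries, the replicate number as a block, glmTreat against a log2 change of 0.5, a GC and length correction, and leaving out each library.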

Additional observations from a re-analysis of the deposited data

How the results depend on the processing

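The calls and directions of CDH1, CDH2, CDH3, CDH6, CDH11, CDH20, CTNNA2, CTNNB1 and EPCAM held in every alternative run, apart from values near 0 and calls against a log2 change of 0.5. Of 570 alternative values for the 10 genes, 544 kept direction and call, 5 lost the call, 4 gained one and 17 changed sign. The 5 losses came from glmTreat: CDH2, CDH20 and CTNNB1 for C75 against DE, and CTNNB1 in both other comparisons. That test called 1897, 3244 and 5475 genes for C75 against DE, ETO against DE and C75 against ETO, and 5 of the 10 genes for C75 against DE (fewer calls follow from its stricter hypothesis).

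The sign changes concern CTNNA1 and EPCAM. For C75 against DE, CTNNA1 gave 0.0074 with the GC and length correction and 0.0072 with that and the replicate block, and EPCAM gave 0.022 with each. Leaving out single libraries gave EPCAM -0.027 to 0.0041. For ETO against DE, CTNNA1 gave 0.0010 with upper-quartile scaling. For C75 against ETO it gave -0.014 with median-of-ratios scaling, -0.065 with upper-quartile scaling, -0.015 with the stricter filter, -0.011 with DESeq2, -0.0085 with 6 libraries and -0.020 to 0.0089 without single libraries. Without single libraries ZEB2 gave -0.61 to 0.17 for C75 against DE and SNAI1 -0.021 to 0.040 for ETO against DE.

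Leaving out each library gave 8274 to 9008, 9415 to 10008 and 10907 to 11354 genes called in the 3 comparisons and always 8, 8 and 9 of the 10 genes. The log2 ratio of CDH1 to CDH2 differed by -1.28 to -1.23, 1.84 to 1.87 and -3.13 to -3.08, and the summed cadherin level by 0.05 to 0.08, -0.33 to -0.31 and 0.38 to 0.39.

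With the replicate number as a block, 8965, 9931 and 11230 genes were called and no call of the 10 genes changed; the paired sign-flip test gave p = 0.25 for each ratio and sum, the smallest that 3 pairs allow, in an exact test. Of the 9 libraries, 6 correlated best with their own number. The GC correction planned from a genome sequence was not run, and one from GENCODE 29 transcripts, like the principal transcript length, was chosen after seeing the data. Depth limits CDH6 most, with 5 counts in C75.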
